A study of Mus with 18 samples.

Results

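The 10 genes described here encode proteins that hold lens epithelial cells (LECs) together or that drive their loss of epithelial character. Cdh1, Cdh2, Ctnnb1 and Tjp1 encode proteins of cell-cell junctions, Vim encodes the intermediate filament protein vimentin, and Snai1, Snai2, Zeb1, Zeb2 and Twist1 encode transcription factors of the epithelial to mesenchymal transition (EMT). The genes were listed by their Ensembl gene ID and not by a cutoff on a measured value, but earlier results of these data were known. They make up 10 of the 55416 gene IDs that were counted, of which 35202 had a count in at least 1 library. Of the 10, 9 were counted in all 18 libraries, and Twist1 had no count in 1 library.

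RNA was sequenced from LECs of 3 genotypes, each at 0 h and at 6 h post cataract surgery (PCS), which here is the surgical removal of the lens fiber cells from a living mouse so that the epithelium stays behind on the lens capsule. WT mice, mice with a germline Egr1 knockout (Egr1KO) and mice with a conditional Fosb deletion in the lens (FosBcKO) gave 3 libraries per time, so 18 libraries fell into 6 groups of 3. All were labelled C57BL/6 and were of both sexes and 3 to 5 months old, and each library pooled lens capsules of 5 animals. The eyes of an animal were operated 6 h apart and collected together, so the 0 h and the 6 h pools of a genotype may share animals, and animals cannot be told apart within a pool.

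The Egr1KO allele carries a selection cassette in an exon that ends the protein early and is present in every cell of the animal, not in the lens alone, and the stock named in the study's methods had a 129 contribution to its background. In FosBcKO mice a floxed Fosb allele was deleted by the MLR10 Cre transgene, which is driven by a modified alpha-A crystallin promoter that is active in lens cells. Whether WT mice carried the floxed allele or the Cre transgene is not given in the sources used here. Egr1 and Fosb encode immediate early transcription factors, and the study asked what each contributes to the LEC response to lens injury.

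Cadherins join neighbouring epithelial cells through their extracellular domains and are tied to the actin cytoskeleton by catenins, of which beta-catenin also acts in Wnt signaling. In EMT, Snail, Slug, Zeb and Twist proteins repress genes of epithelial adhesion such as Cdh1, and cells commonly turn from E-cadherin to N-cadherin and raise vimentin. The lens epithelium is unusual in that its uninjured cells make E-cadherin, N-cadherin and vimentin side by side, and the EMT of LECs left on the capsule is part of posterior capsular opacification, a common complication of cataract surgery.

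The libraries held between 9609295 and 13871592 read pairs counted in genes, and between 19121 and 25999 gene IDs with a count. Levels are given below in CPM, the count of a gene per 1000000 gene counts of its library, and were compared only between libraries and not between genes, since no gene lengths were used. At this depth 1 CPM stood for about 10 to 14 read pairs, so the 3 members at a few CPM rest on few reads, and a count of 0 allows up to 3 counts, which was 0.286 CPM in the library concerned. WT 6 h replicate 3 stood apart for these genes: it was the lowest of all 18 libraries for Cdh2, Ctnnb1, Tjp1, Vim, Zeb2 and Twist1, and the lowest of its group for 9 of the 10 genes. FosBcKO 6 h replicate 1 had the most gene IDs with a count, 25999, and was the lowest of its group for 7 of the 10. These libraries also had the highest scaling factors of the trimmed mean of M values (TMM), 1.15 and 1.09, against 0.898 to 1.04 in the others, and the part of this in the results below was not tested. Markers of other cell types, and the targeted genes Egr1 and Fosb, were not analysed here, because the gene IDs came without names other than those of the 10 members. In such pooled tissue, fewer cells of a type and less RNA per cell cannot be told apart.

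Whether LECs lowered junction genes and raised EMT factors within 6 h of fiber cell removal was first asked in each genotype on its own. In WT LECs none of the 10 members was a differentially expressed gene (DEG, a false discovery rate of at most 0.05 and a change of over 2-fold), against 17.1% of all 15440 genes tested. Without the fold minimum the count was still 0 of 10 in edgeR, against 26.2% of all genes. In DESeq2 it was 2 of 10, Cdh2 and Ctnnb1, against 4994 of 15440 genes. In edgeR 2 members, Cdh2 and Ctnnb1, had an unadjusted p under 0.05, against 41.2% of all genes. The fitted log2 fold change (log2FC) was below 0 for 9 members and above 0 for Snai1 alone, with a median of -0.47 over the members and -0.02 over all genes. In Egr1KO LECs 8 members had enough counts to be tested, 0 were DEGs (12.0% of all genes were) and 1, Ctnnb1, passed the false discovery rate (FDR) alone (21.2% of all genes did), and this member had the only unadjusted p under 0.05 (37.6% of all genes). In FosBcKO LECs 10 were tested, 0 were DEGs (13.1% of all genes were) and 1, again Ctnnb1, passed the FDR alone (21.8%), with 4 at an unadjusted p under 0.05 (37.3%). The members' median log2FC was -0.17 in Egr1KO and -0.32 in FosBcKO, against 0.00 and 0.05 over all genes. Over genes of at least 5 log2 CPM the median was -0.10 in WT, -0.07 in Egr1KO and -0.08 in FosBcKO.

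Ctnnb1 (ENSMUSG00000006932), which encodes beta-catenin, was the junction gene with the clearest change. Its level in WT was 448.8, 428.8 and 456.2 CPM in the 3 libraries at 0 h and 307.2, 363.5 and 236.9 CPM at 6 h. In Egr1KO it was 481.2, 475.8 and 484.5 CPM at 0 h and 328.6, 328.7 and 340.3 CPM at 6 h, and in FosBcKO 466.4, 475.8 and 500.0 CPM at 0 h and 276.7, 313.2 and 363.0 CPM at 6 h. Every 6 h library lay below every 0 h library, whichever the genotype. Ctnnb1 fell by 28.0% in Egr1KO (log2FC -0.47, SE 0.12, edgeR FDR 0.0322) and fell by 33.8% in FosBcKO (log2FC -0.59, SE 0.16, edgeR FDR 0.0283). In WT the fitted difference was -0.65 (SE 0.22) and did not pass (edgeR FDR 0.063), although its 3 libraries at 6 h were all lower.

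The call of Ctnnb1 within a single genotype turned on single libraries, as did the number of all genes that passed. In Egr1KO its FDR was 0.113, 0.0872 and 0.14 when replicate 1, 2 or 3 at 0 h was left out and 0.0823 without replicate 3 at 6 h, with log2FC between -0.47 and -0.52. In these fits 947, 1268, 619 and 1018 of all genes passed, against 3089 with all libraries. Ctnnb1 passed without Egr1KO 6 h replicate 1 or 2, where 5240 and 2329 genes did. In FosBcKO its FDR was 0.0782, 0.0509 and 0.0933 without replicate 1, 2 or 3 at 0 h and 0.055 without replicate 2 at 6 h, with log2FC between -0.58 and -0.69. Of all genes 1813, 2520, 1116 and 1883 passed in these fits, against 3381 with all libraries. Ctnnb1 passed without FosBcKO 6 h replicate 1 or 3, where 1799 and 4582 genes did. In WT it passed without replicate 2 at 6 h (FDR 0.0269) and without replicate 3 at 6 h (FDR 0.025). There 4072 and 3875 of all genes passed, against 4048 with all libraries.

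**Figure D1:**
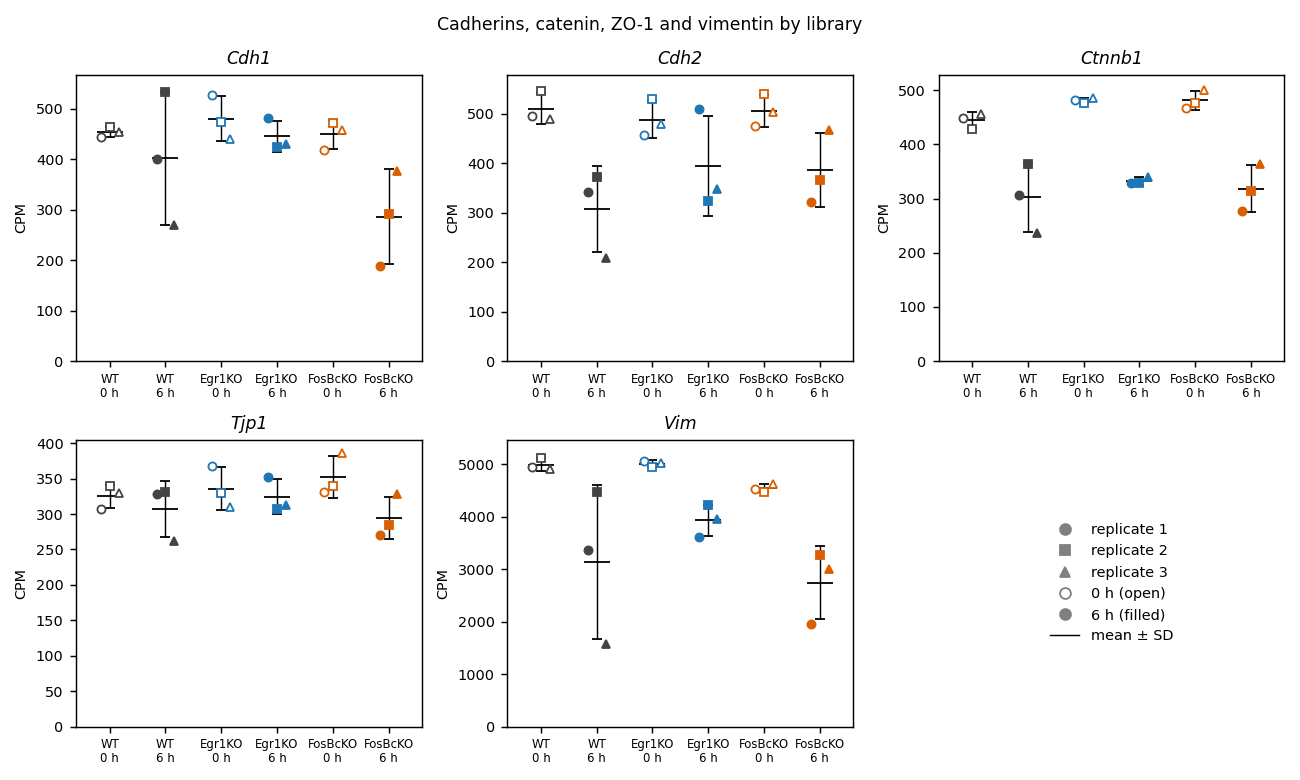
Level in CPM (vertical axis, linear from 0) of Cdh1, Cdh2, Ctnnb1, Tjp1 and Vim in each of the 18 libraries by genotype and time, with open symbols for 0 h, filled symbols for 6 h, a shape per replicate number, and bars for the mean ± SD of 3 libraries. The 9 libraries at 6 h lie below the 9 at 0 h for Ctnnb1 and, by 4474 against 4475 CPM at the closest (an order that TMM scaling turns), for Vim, while those of Cdh1, Cdh2 and Tjp1 overlap, and WT 6 h replicate 3 (filled triangle) is the lowest for Cdh2, Ctnnb1, Tjp1 and Vim.

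Cdh2 (ENSMUSG00000024304) encodes N-cadherin, the classical cadherin of lens fiber cells that LECs make as well. In WT its level was 496.0, 545.2 and 489.3 CPM at 0 h and 342.0, 371.0 and 208.6 CPM at 6 h, with no overlap. The fitted log2FC of -0.82 (SE 0.27) was just short of the threshold (edgeR FDR 0.0532). Without replicate 3 at 6 h, the lowest library, the WT difference was smaller, -0.57, and passed (FDR 0.00899), and without replicate 2 at 6 h it was -1.02 and passed as a DEG (FDR 0.0354). In Egr1KO the libraries held 456.5, 528.7 and 479.0 CPM at 0 h and 508.8, 323.1 and 348.7 CPM at 6 h, so that 1 of the 3 at 6 h, replicate 1, lay among those at 0 h (log2FC -0.24, SE 0.21, FDR 0.422). Without that library the Egr1KO difference was -0.52 and passed (FDR 0.0166). In FosBcKO they held 474.3, 538.9 and 502.3 CPM at 0 h and 322.3, 366.0 and 467.8 CPM at 6 h, which do not overlap by a narrow margin (log2FC -0.39, SE 0.18, FDR 0.136), and the difference passed without replicate 3 at 6 h (log2FC -0.61, FDR 0.0343).

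Within WT, libraries of the same replicate number deviated together from their group means only weakly (r from 0.102 to 0.247). The labels do not say whether they share animals. As an alternative, the WT fit was repeated with the replicate number as a block. With this block 4723 of all 15440 genes tested passed the FDR, and 2 of the 10 members did, Cdh2 (log2FC -0.88, FDR 0.0197) and Ctnnb1 (log2FC -0.68, FDR 0.0429). Neither was a DEG since both changed by less than 2-fold.

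Cdh1 (ENSMUSG00000000303) encodes E-cadherin, the cadherin whose loss is the usual mark of EMT. In WT it stood at 443.1, 463.7 and 453.7 CPM at 0 h and at 401.2, 533.6 and 269.5 CPM at 6 h, where 1 library was above and the other two below all at 0 h (log2FC -0.26, SE 0.28, FDR 0.516). Without WT 6 h replicate 3 the WT difference was 0.00 (FDR 0.991). In Egr1KO, 527.8, 473.2 and 439.3 CPM at 0 h met 480.5, 423.1 and 430.8 CPM at 6 h, which overlap (log2FC -0.05, SE 0.14, FDR 0.826). In FosBcKO, 417.5, 472.4 and 458.6 CPM at 0 h met 188.4, 292.3 and 376.7 CPM at 6 h. Every FosBcKO library at 6 h was lower, but the 6 h libraries lay far apart and the difference did not pass (log2FC -0.64, SE 0.24, edgeR FDR 0.0776). On the same libraries it passed in DESeq2 (FDR 0.0315), and in edgeR with no filter (FDR 0.00118) or the replicate number as a block (FDR 0.00974). It also passed without FosBcKO 6 h replicate 3 (log2FC -0.94, FDR 0.0153).

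Tjp1 (ENSMUSG00000030516) encodes ZO-1, a scaffold protein of tight junctions that also sits at adherens junctions. Its group means ran from 294.2 ± 30.1 CPM in FosBcKO at 6 h to 352.2 ± 30.2 CPM in FosBcKO at 0 h (SD, n = 3 libraries). The log2FC at 6 h was -0.18 in WT, 0.01 in Egr1KO and -0.26 in FosBcKO, with an FDR of 0.507, 0.97 and 0.261. The WT and Egr1KO libraries of both times overlapped, and the FosBcKO libraries did not, from 330.6 to 386.7 CPM at 0 h and from 270.0 to 327.9 CPM at 6 h. The WT value was -0.28 without WT 6 h replicate 2 and -0.03 without replicate 3, and the FosBcKO value -0.41 without FosBcKO 6 h replicate 3.

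Vim (ENSMUSG00000026728), whose product is the main intermediate filament protein of LECs besides its use as a mesenchymal marker, was lower at 6 h and not higher. In WT it was 4949, 5130 and 4906 CPM at 0 h and 3357, 4474 and 1574 CPM at 6 h. In Egr1KO it was 5070, 4944 and 5017 CPM at 0 h and 3622, 4215 and 3952 CPM at 6 h, and in FosBcKO it was 4529, 4475 and 4631 CPM at 0 h and 1955, 3268 and 3001 CPM at 6 h. The 0 h libraries of a genotype lay close together, the 6 h libraries spread widely, and within each genotype every 6 h library was below every 0 h library. The fitted log2FC was -0.75 (SE 0.41) in WT, -0.30 (SE 0.13) in Egr1KO and -0.71 (SE 0.24) in FosBcKO, and none passed (edgeR FDR 0.208, 0.146 and 0.057). Leaving out WT 6 h replicate 3 moved the WT value to -0.40 (FDR 0.0785). The FosBcKO value passed without any 1 of its 6 h libraries, at -0.54 without replicate 1 (FDR 0.0366), -0.96 without replicate 2 (FDR 0.045) and -0.83 without replicate 3 (FDR 0.0452).

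The number of members whose libraries did not overlap between times was counted in each genotype. Of the 10 members, 3 were lower in every WT library at 6 h than in every one at 0 h, against 19.8% of all genes tested. In Egr1KO 4 of 10 were lower and Snai1 was higher without overlap, against 25.2% and 18.1% of all genes tested, and Snai1 and Twist1 among these had too few counts for the test. In FosBcKO 6 of 10 were lower without overlap, against 20.1%. With CPM divided by the TMM factors, as in the fits, the FosBcKO count was 5, since the Zeb2 libraries then overlapped, against 21.0% of all genes, and the WT and Egr1KO counts did not change.

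**Figure D2:**
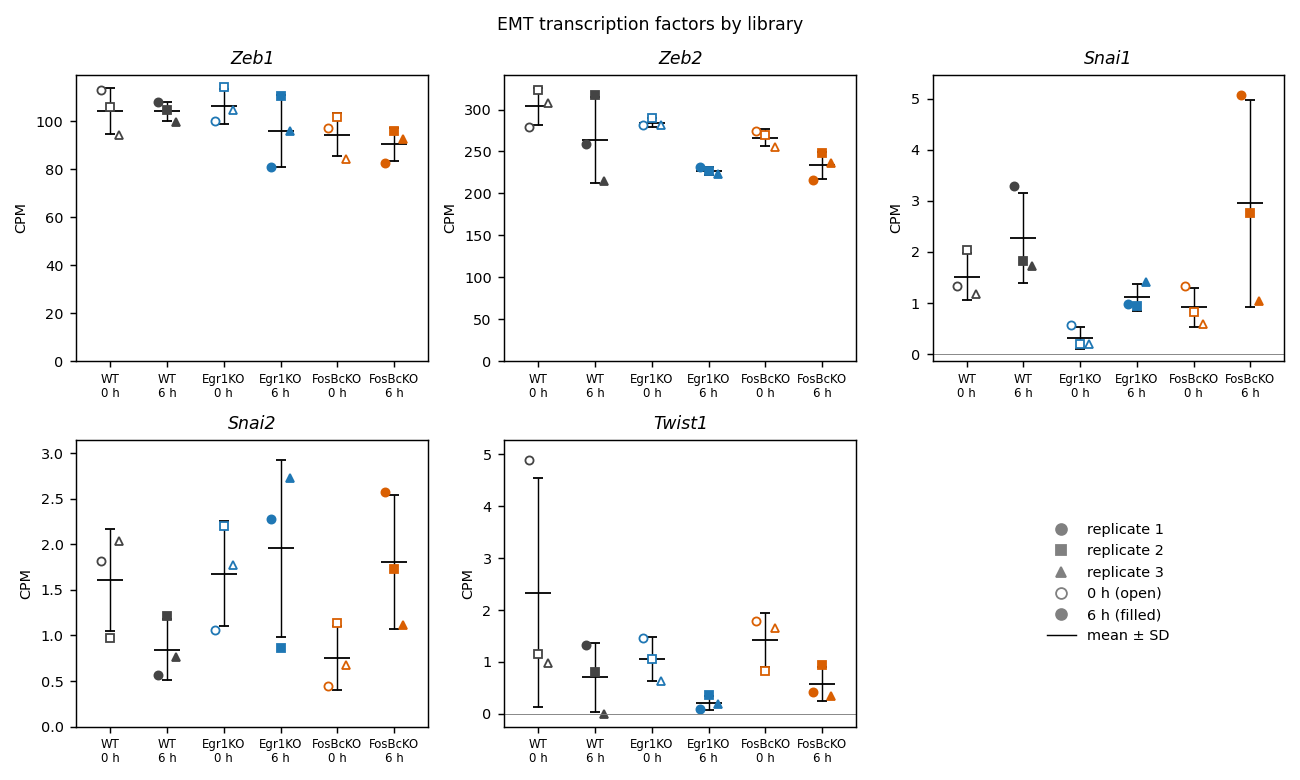
Level in CPM (vertical axis, linear) of Zeb1, Zeb2, Snai1, Snai2 and Twist1 in each of the 18 libraries, with symbols as in the plot of junction genes and bars for the mean ± SD of 3 libraries. Zeb1 stays between 80.97 and 114.4 CPM in every library, Snai1, Snai2 and Twist1 stay at or below 5.07 CPM, and 1 WT 0 h library, replicate 1, carries most of the Twist1 signal of its group.

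Among the transcription factors, Zeb1 (ENSMUSG00000024238), a zinc finger and homeobox repressor of Cdh1, was the steadiest. Its group means lay between 90.4 ± 6.82 CPM (FosBcKO, 6 h) and 106.4 ± 7.35 CPM (Egr1KO, 0 h), and its log2FC at 6 h was -0.11 (SE 0.15) in WT, -0.10 (SE 0.13) in Egr1KO and -0.05 (SE 0.15) in FosBcKO. All 3 had an FDR of at least 0.617, and the libraries of both times overlapped in each genotype.

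Zeb2 (ENSMUSG00000026872), its close relative, was 279.5, 323.8 and 307.6 CPM in WT at 0 h and 258.4, 317.2 and 214.9 CPM at 6 h. In Egr1KO it was 281.2, 290.4 and 281.4 CPM at 0 h and 231.8, 226.5 and 222.8 CPM at 6 h, and in FosBcKO 274.1, 269.7 and 254.8 CPM at 0 h and 215.7, 247.6 and 236.8 CPM at 6 h. Both knockouts were lower at 6 h in every library in CPM, and in WT the times overlapped. The fitted log2FC was -0.30, -0.27 and -0.18 in WT, Egr1KO and FosBcKO, and none passed (FDR 0.325, 0.144 and 0.393). The WT value was -0.50 without WT 6 h replicate 2 and -0.12 without replicate 3, and the FosBcKO value -0.32 without FosBcKO 6 h replicate 2.

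Snai1 (ENSMUSG00000042821) encodes Snail, a zinc finger repressor of Cdh1 that acts early in EMT. Its raw counts were 14, 23 and 12 in WT at 0 h and 35, 18 and 18 at 6 h. In Egr1KO they were 7, 2 and 2 at 0 h and 10, 13 and 15 at 6 h, and in FosBcKO 15, 8 and 6 at 0 h and 59, 32 and 12 at 6 h. The Egr1KO libraries did not overlap between times, while those of WT and FosBcKO did, the latter because replicate 3 at 6 h was low. The log2FC was 0.47 (SE 0.54, FDR 0.54) in WT and 1.67 (SE 0.70, FDR 0.112) in FosBcKO. The WT value ran from 0.09 without WT 6 h replicate 1 to 0.76 without WT 0 h replicate 2. In FosBcKO it was 1.07 without 6 h replicate 1, and Snai1 passed as a DEG without 6 h replicate 3 (log2FC 1.99, FDR 0.0482). In Egr1KO Snai1 was removed by the filter on low counts, and in a fit with no filter its log2FC was 1.75 (FDR 0.379).

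Snai2 (ENSMUSG00000022676) encodes Slug, a relative of Snail. It was counted 19, 11 and 21 times in WT at 0 h and 6, 12 and 8 times at 6 h, 13, 23 and 17 then 23, 12 and 29 times in Egr1KO, and 5, 11 and 7 then 30, 20 and 13 times in FosBcKO. The FosBcKO counts at 6 h were all higher than those at 0 h, though its levels in CPM overlapped, and the WT and Egr1KO libraries overlapped too. The log2FC was -1.02 (SE 0.61) in WT, 0.30 (SE 0.64) in Egr1KO and 1.25 (SE 0.70) in FosBcKO, with an FDR of 0.243, 0.76 and 0.217. The Egr1KO value ran from -0.04 without Egr1KO 6 h replicate 3 to 0.69 without replicate 2.

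Twist1 (ENSMUSG00000035799) encodes a basic helix-loop-helix factor of mesenchymal cells. Its counts were 51, 13 and 10 in WT at 0 h and 14, 8 and 0 at 6 h, 18, 11 and 6 then 1, 5 and 2 in Egr1KO, and 20, 8 and 17 then 5, 11 and 4 in FosBcKO. The Egr1KO libraries did not overlap between times and the others did. The log2FC was -1.78 (SE 1.08, FDR 0.251) in WT and -1.28 (SE 0.77, FDR 0.252) in FosBcKO, and in Egr1KO, where the filter removed the gene, -2.20 (FDR 0.302) with no filter. Without WT 0 h replicate 1, the library with 51 counts, the WT value was -0.67, and without FosBcKO 6 h replicate 2 the FosBcKO value was -1.96.

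Since most members pointed the same way in the 3 genotypes, the 6 h effect was also tested as the mean of the 3 genotypes over all 18 libraries, a comparison chosen after the values had been seen. Of the 10 members, 7 had an unadjusted p under 0.05 (57.9% of all genes) and 6 passed the FDR, 5 of them lower and 1 higher at 6 h. Of all 17469 genes tested, 52.3% passed it (22.7% lower, 29.6% higher), so the share of members that passed was near that of all genes. There were 2 DEGs, Snai1 and Twist1, against 22.5% of all genes. The members' median log2FC was -0.27, against 0.08 over all genes and -0.07 over the 5063 genes of at least 5 log2 CPM.

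In this mean over genotypes Ctnnb1 fell by 32.3%, from 468.6 to 317.6 CPM (log2FC -0.56, SE 0.10, edgeR FDR 0.00019), and Vim fell by 33.0%, from 4850 to 3269 CPM (log2FC -0.58, SE 0.17, edgeR FDR 0.0103). In CPM these were the 2 members whose 9 libraries at 6 h all lay below the 9 at 0 h, against 6.02% of all genes. For Vim this rested on 4474 CPM in WT 6 h replicate 2 against 4475 CPM in FosBcKO 0 h replicate 2, and with TMM scaling these were 4428 and 4309 CPM, so that Ctnnb1 alone did not overlap (5.23% of all genes lower). Cdh2 fell by 28.0%, from 501.1 to 362.0 CPM (log2FC -0.47, SE 0.14, edgeR FDR 0.00711), and Zeb2 fell by 15.4% (log2FC -0.24, SE 0.09, edgeR FDR 0.0376). Cdh1, Tjp1, Zeb1 and Snai2 did not pass (log2FC -0.31, -0.14, -0.08 and 0.19, with an FDR of 0.0817, 0.235, 0.427 and 0.684). In 3 of 7 other settings Cdh1 passed, with upper quartile scaling, no filter and the replicate block (edgeR FDR 0.0328, 0.0117 and 0.025). In 2 of the 7 Zeb2 did not pass, with another scaling, RLE size factors, and with no filter (edgeR FDR 0.0516 and 0.0505).

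Snai1 rose 2.49-fold in the mean over genotypes, from 0.919 to 2.12 CPM (log2FC 1.32, SE 0.38, edgeR FDR 0.00768). Twist1 fell, from 1.60 to 0.500 CPM (log2FC -1.72, SE 0.57, edgeR FDR 0.0169). The EMT factors thus moved in different directions at 6 h, Snai1 higher, Zeb2 and Twist1 lower, and Zeb1 and Snai2 with log2FC values of -0.08 and 0.19 that did not pass. Ctnnb1, Cdh2, Vim and Snai1 passed when any 1 of the 18 libraries was left out, with a highest FDR of 0.000509, 0.016, 0.0203 and 0.0266. Twist1 did not pass without WT 0 h replicate 1, the library with 51 of its counts (log2FC -1.35, FDR 0.0629). Zeb2 did not pass in 8 of the 18 such fits, and Cdh1 passed in 3 of them, without WT 6 h replicate 2, Egr1KO 6 h replicate 1 or FosBcKO 6 h replicate 3 (FDR 0.0164, 0.0427 and 0.0316). The 8 fits in which Zeb2 did not pass lacked WT 0 h replicate 3, WT 6 h replicate 1, Egr1KO 0 h replicate 1 or 2, Egr1KO 6 h replicate 2, FosBcKO 0 h replicate 1, or FosBcKO 6 h replicate 1 or 3, with an FDR from 0.0514 to 0.0761.

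**Figure D3:**
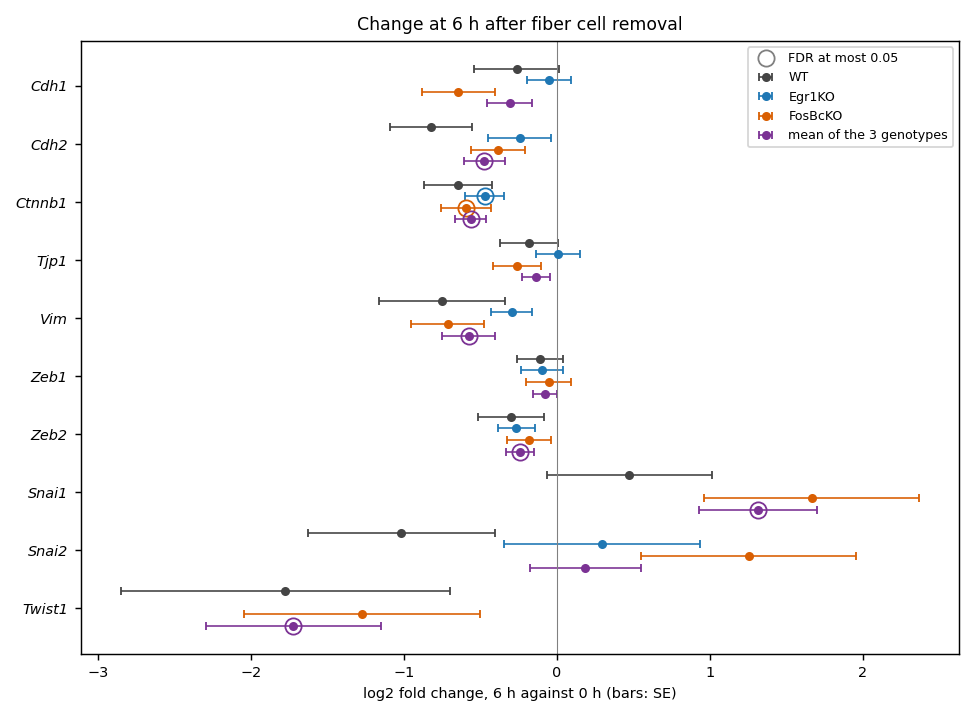
Fitted log2 fold change at 6 h against 0 h (horizontal axis, bars for the standard error) of the 10 members in WT, Egr1KO, FosBcKO and the mean of the 3 genotypes, with a ring around values of an FDR of at most 0.05. Ctnnb1 is ringed in Egr1KO, FosBcKO and the mean, no WT value is ringed, and 6 members are ringed in the mean. Snai1 and Twist1 have no Egr1KO point because the filter on low counts removed them.

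The balance of the classical cadherins was followed within each library as the log2 ratio of Cdh2 counts to Cdh1 counts, a measure that library scaling cannot move, for comparison between libraries and not as a comparison of their levels. It is a description with no test. In WT the ratio was 0.16, 0.23 and 0.11 at 0 h and -0.23, -0.52 and -0.37 at 6 h, so that all 3 libraries at 6 h were lower, and its mean changed by -0.54. In FosBcKO it was 0.18, 0.19 and 0.13 at 0 h and 0.77, 0.32 and 0.31 at 6 h, where all 3 libraries at 6 h were higher, and its mean changed by 0.30. In Egr1KO it was -0.21, 0.16 and 0.13 at 0 h and 0.08, -0.39 and -0.31 at 6 h, which overlap, and its mean changed by -0.23. Leaving out single libraries gave changes from -0.62 to -0.47 in WT and from 0.15, without FosBcKO 6 h replicate 1, to 0.38 in FosBcKO. In Egr1KO they ran from -0.37 without Egr1KO 6 h replicate 1 to -0.14 without replicate 2. The log2 ratio of Vim to Cdh1 counts went from 3.46 ± 0.02 to 2.89 ± 0.30 in WT, from 3.39 ± 0.12 to 3.14 ± 0.21 in Egr1KO and from 3.34 ± 0.10 to 3.28 ± 0.26 in FosBcKO (SD, n = 3 libraries). The WT libraries of both times did not overlap in this second ratio, and those of the knockouts did. Its change of -0.06 in FosBcKO ran from -0.15 to 0.09 without single libraries, so that its sign turned, and its change of -0.24 in Egr1KO was -0.13 without Egr1KO 6 h replicate 1.

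**Figure D4:**
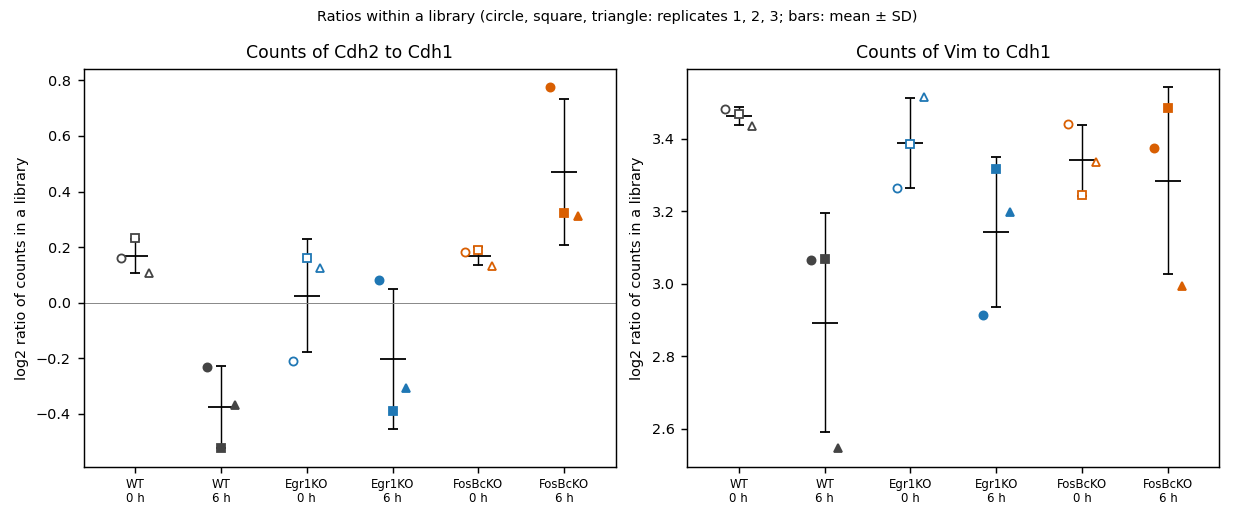
Log2 ratio of counts within a library (vertical axis) of Cdh2 to Cdh1 (left) and Vim to Cdh1 (right) for each of the 18 libraries, with open symbols for 0 h, filled symbols for 6 h and bars for the mean ± SD of 3 libraries. In the left panel the WT libraries at 6 h are all below those at 0 h and the FosBcKO libraries at 6 h are all above, while those of Egr1KO overlap.

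To ask whether the knockouts changed these genes in uninjured LECs, each was compared with WT at 0 h by edgeR's exact test. None of the 10 members was a DEG in Egr1KO (0.410% of all 14373 genes were) or in FosBcKO (0.295% of 14556 were), and none passed the FDR alone (0.543% and 0.392%), in DESeq2 as in edgeR. At an unadjusted p under 0.05 there was 1 member in Egr1KO (6.40% of all genes) and 0 in FosBcKO (5.62%). Both knockouts were compared with the same WT libraries, so the values for them are not independent.

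The member in question was Snai1, with 7, 2 and 2 counts in the Egr1KO libraries at 0 h against 14, 23 and 12 in WT. Each Egr1KO library held fewer than each WT library, 0.19 to 0.57 CPM against 1.17 to 2.05 CPM, and 2 of the 3 were under the floor of 3 counts. The log2FC of -2.14 (SE 0.82) had an unadjusted p of 0.00545 and did not pass over all genes (edgeR exact test, FDR 0.287). In FosBcKO at 0 h Snai1 was 15, 8 and 6 counts, which overlap those of WT (log2FC -0.73, SE 0.69, FDR 1). Twist1 at 0 h had a log2FC of -1.12 in Egr1KO and -0.71 in FosBcKO (FDR 0.92 and 1), but -0.01 and 0.43 without WT 0 h replicate 1, and Snai2 of 0.08 and -1.09 (FDR 1 in both).

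The more abundant members differed little between genotypes at 0 h. Over Cdh1, Cdh2, Ctnnb1, Tjp1, Vim, Zeb1 and Zeb2 the log2FC in Egr1KO ran from -0.07 for Zeb2 to 0.14 for Ctnnb1, and in FosBcKO from -0.19 for Zeb2 to 0.11 for Tjp1, with an FDR of at least 0.983. Ctnnb1 was higher without overlap in both knockouts, 475.8 to 484.5 CPM in Egr1KO and 466.4 to 500.0 CPM in FosBcKO against 428.8 to 456.2 CPM in WT. Vim and Zeb2 were lower without overlap in FosBcKO. In CPM the members without overlap were thus 2 of 10 in Egr1KO and 3 of 10 in FosBcKO, against 16.5% and 14.2% of all genes tested. With TMM scaling Vim overlapped, which left 2 of 10 in FosBcKO.

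At 6 h PCS the question was whether the loss of either factor altered the members in injured LECs. Again 0 of the 9 members tested were DEGs in Egr1KO against WT (0.736% of all 15618 genes were) or in FosBcKO against WT (5.41% of 16155 were), and 0 passed the FDR alone (0.743% and 6.26%) or had an unadjusted p under 0.05 (9.67% and 16.5%). Twist1 was removed by the filter in both, and had a log2FC of -1.50 and -0.21 with no filter (FDR 1 in both).

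Snai2 stood out in size but not in its test. It was 23, 12 and 29 counts in Egr1KO and 30, 20 and 13 in FosBcKO against 6, 12 and 8 in WT, a log2FC of 1.42 (SE 0.71, edgeR exact test FDR 0.532) and 1.20 (SE 0.61, FDR 0.334). In CPM 1 library of each knockout overlapped with WT. Cdh2 had a log2FC of 0.57 (SE 0.33) in Egr1KO and 0.44 (SE 0.31) in FosBcKO, with an FDR of 0.661 and 0.596. Cdh1 had a log2FC of 0.35 (SE 0.31) in Egr1KO and -0.37 (SE 0.37) in FosBcKO, with an FDR of 0.839 and 0.752, and Vim of 0.51 (SE 0.43) and -0.08 (SE 0.47), with an FDR of 0.78 and 0.983. Single WT libraries moved these values: for Cdh1 they were 0.65 and -0.08 without WT 6 h replicate 2, and 0.09 and -0.65 without replicate 3. For Vim they were 0.90 and 0.30 without WT 6 h replicate 2 and 0.16 and -0.45 without replicate 3, so that the sign in FosBcKO turned. For Cdh2 they were 0.31 and 0.16 without WT 6 h replicate 3, and the Egr1KO value was also 0.31 without Egr1KO 6 h replicate 1.

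In CPM the libraries did not overlap at 6 h for 1 member in each knockout, and with TMM scaling for 0. Snai1 was 10, 13 and 15 counts in Egr1KO against 35, 18 and 18 in WT, lower in every library (log2FC -0.82, SE 0.59, FDR 0.754). Zeb1 in FosBcKO, at 82.8 to 95.8 CPM against 99.8 to 108.0 CPM in WT, was lower in every library as well, by a small amount (fitted log2FC -0.07, SE 0.19, FDR 0.955). Of all genes, 16.9% and 21.8% did not overlap in these comparisons in CPM, and 14.1% and 22.1% with TMM scaling.

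**Figure D5:**
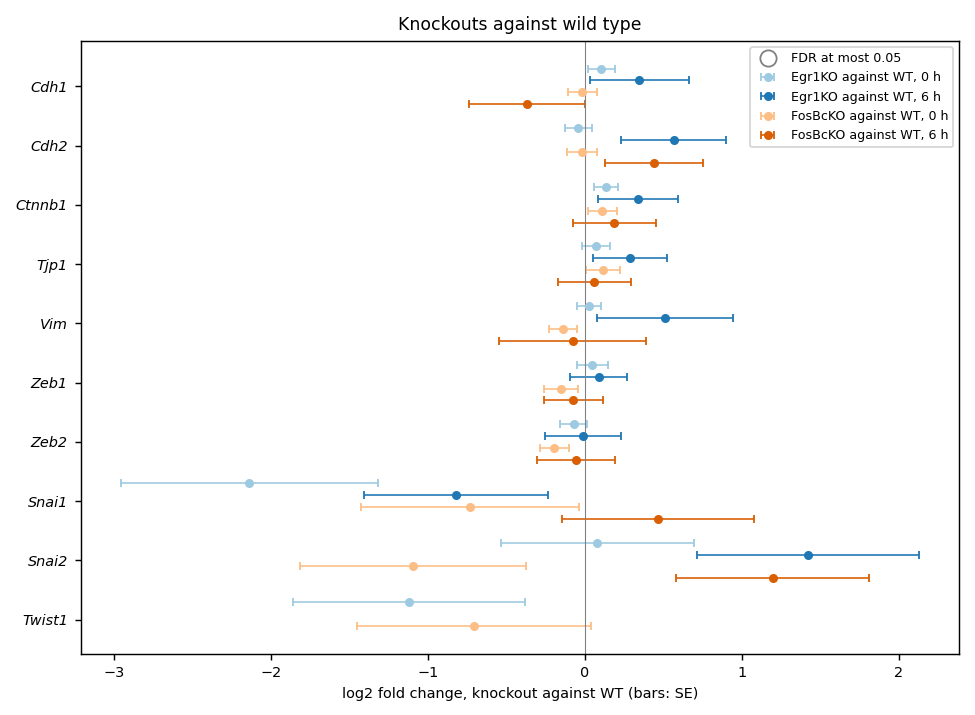
Fitted log2 fold change of each knockout against WT at 0 h (pale) and at 6 h (dark), with bars for the standard error (horizontal axis, log2). No member is ringed, since none passed an FDR of 0.05, and the widest bars belong to Snai1, Snai2 and Twist1. Twist1 has no points at 6 h because the filter on low counts removed it.

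A difference in the injury response itself, knockout against WT, was tested by the interaction of genotype with time over all 18 libraries. None of the 10 members passed for Egr1KO or FosBcKO, and 0% of all 17469 genes did. At an unadjusted p under 0.05 there were 0 members for Egr1KO (6.53% of all genes) and 1 for FosBcKO (6.70%). That member was Snai2, whose change at 6 h was higher in FosBcKO than in WT by 2.21 on the log2 scale (SE 0.90, p 0.0241, edgeR FDR 0.685). For Cdh1 the difference in response was 0.19 (SE 0.35) in Egr1KO and -0.43 (SE 0.35) in FosBcKO, for Cdh2 0.56 (SE 0.33) and 0.38 (SE 0.33), and for Ctnnb1 0.15 (SE 0.25) and 0.00 (SE 0.25). The lowest FDR among these was 0.805. The call of Ctnnb1 in the knockouts and not in WT is thus not a shown difference between genotypes.

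Ordered by their mean CPM, the 3 groups at 0 h stood above the 3 at 6 h for Cdh1, Cdh2, Ctnnb1, Tjp1, Vim, Zeb2 and Twist1. Some groups next to each other were not separated by their libraries. With TMM scaling this order did not hold for Cdh1 and Tjp1, where the mean of Egr1KO at 6 h exceeded that of WT at 0 h. It also exceeded that of FosBcKO at 0 h for Cdh1 and that of Egr1KO at 0 h for Tjp1. Scaled Cdh1 was 535.2, 426.9 and 475.9 CPM in Egr1KO at 6 h against 439.1, 471.3 and 439.9 CPM in WT at 0 h. In FosBcKO at 0 h it was 408.9, 454.9 and 476.1 CPM. Scaled Tjp1 was 392.5, 309.7 and 345.8 CPM in Egr1KO at 6 h against 304.6, 344.5 and 319.2 CPM in WT at 0 h. In Egr1KO at 0 h it was 375.7, 325.7 and 331 CPM. For Ctnnb1 the order ran from FosBcKO at 0 h (480.7 ± 17.4 CPM) and Egr1KO at 0 h (480.5 ± 4.42 CPM), which overlapped, to WT at 0 h (444.6 ± 14.2 CPM), then Egr1KO (332.6 ± 6.73 CPM), FosBcKO (317.6 ± 43.3 CPM) and WT (302.5 ± 63.4 CPM) at 6 h, which overlapped (SD, n = 3 libraries). For Vim in CPM, Egr1KO and WT at 0 h (5010 ± 63.3 and 4995 ± 119 CPM) overlapped and lay above FosBcKO at 0 h (4545 ± 79.2 CPM), which lay above Egr1KO at 6 h (3929 ± 297 CPM). WT and FosBcKO at 6 h came last and overlapped (3135 ± 1463 and 2741 ± 694 CPM). With TMM scaling the Vim libraries of FosBcKO at 0 h overlapped those of WT at 0 h, at 4309 to 4807 CPM against 4757 to 5214 CPM, and those of Egr1KO at 6 h, which reached 4365 CPM.

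For Cdh2, neighbours in the order overlapped throughout, from 510.1 ± 30.5 CPM in WT at 0 h to 307.2 ± 86.6 CPM in WT at 6 h. The same held for Cdh1, from 480.1 ± 44.7 CPM in Egr1KO at 0 h to 285.8 ± 94.3 CPM in FosBcKO at 6 h, and for Tjp1, Zeb1, Snai2 and Twist1. Zeb2 had its highest mean in WT at 0 h (303.6 ± 22.4 CPM) and its lowest in Egr1KO at 6 h (227.0 ± 4.53 CPM), and the only neighbours without overlap were Egr1KO and FosBcKO at 0 h. Snai1 ran from 2.95 ± 2.02 CPM in FosBcKO at 6 h to 0.324 ± 0.214 CPM in Egr1KO at 0 h, and only these Egr1KO libraries were set apart from the group next to them, FosBcKO at 0 h (0.917 ± 0.386 CPM).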

How the data were processed

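RNA of pooled mouse LECs was sequenced as stranded, paired-end libraries. The authors aligned read pairs with HISAT2 and deposited raw counts per Ensembl gene from HTSeq in union mode, with no normalization. The study's methods name GRCm38 and the submitters' processing notes GRCm39, so no coordinates are given. Union mode leaves out pairs that overlap several genes, and PCR copies were not marked, so floors cover counting error only. HTSeq's summary lines entered no test. Pairs outside genes were 8.03% to 30.5% of a library, and the rest of the uncounted pairs were unaligned, non-unique, of low quality or ambiguous. No 2 libraries of the same group had counts that agree within sampling noise.

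Tests used edgeR 4.0.16 in R 4.3.3 with filterByExpr, TMM scaling and robust dispersions, fitted on all genes of the libraries compared, with Benjamini-Hochberg adjustment over all genes. The quasi-likelihood F-test served 6 h against 0 h and, over all 18 libraries, the interaction and the mean of the 3 genotypes, and the exact test served knockouts against WT. Standard errors came from the quasi-likelihood fit. The scripts were tested on simulated data. Labels tie pools to no named animals, so p-values measure the spread between pools.

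The members, and the choice of tests, were made with earlier results of these data known. The genes named are the 10 members, by their given IDs. A rule to name the 5 genes most like each called WT member named none, since no member was called, and gene lists, markers, Egr1 and Fosb were not analysed here because 0 of 55416 IDs matched the RefSeq table at hand. Replicate numbers are shared by all groups. Same-numbered WT libraries at 0 h and 6 h correlated in their deviations above 0.1 in 3 of 3 pairs (r from 0.102 to 0.247). Only 1 of 3 pairs did in Egr1KO and 2 of 3 in FosBcKO. The block is therefore given as a result of its own for WT only, and elsewhere as an alternative setting. Alternatives were DESeq2 1.42.0, other scalings, filters and tests, the block, and leaving out each library.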

Additional observations from a re-analysis of the deposited data

Results flagged for a closer look

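The log2 ratio of Cdh2 to Cdh1 counts is given here because it moved in opposite ways in 2 genotypes: its mean changed by -0.54 at 6 h in WT, where each library at 6 h lay below each at 0 h, and by 0.30 in FosBcKO, where each lay above. The difference between the genotypes was not tested. For the genes of the ratio, the interaction of FosBcKO with time had an edgeR FDR of 0.848 for Cdh1 and 0.862 for Cdh2.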

How the results depend on the processing

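Replicates were few and Snai1, Snai2 and Twist1 low in counts, so values near a threshold changed sides. Members past the FDR alone in WT numbered 0, against 26.2% of all genes. They were 2 (Cdh2 and Ctnnb1) with DESeq2, upper quartile scaling, no filter, all 18 libraries in 1 fit, the exact test or the replicate block. In these settings 4457 to 4994 genes passed, of 15440 tested (17469 in the fit of all libraries, 29204 with no filter). Without single libraries 0 to 2 members passed, and 2134 to 4072 of all genes. In Egr1KO the 1 member became 0 in the fit of all 18 libraries, where 4255 of 17469 genes passed. It became 0 to 2 without single libraries, where 619 to 5240 genes passed. In FosBcKO the 1 member became 3 (Cdh1, Ctnnb1 and Vim) with DESeq2, no filter or the replicate block. There 4191 of 15475, 4187 of 31571 and 4530 of 15475 genes passed. It became 2 with upper quartile scaling or the exact test, with 3567 and 3978 of 15475 genes. Without single libraries it was 0 to 5, with 1116 to 4582 genes. Dropping the fold minimum from the DEG rule gave 1 member in Egr1KO, 1 in FosBcKO and 6 in the mean of the 3 genotypes. Of all genes it gave 21.2%, 21.8% and 52.3%. In that mean, 5 to 7 members passed the FDR alone in the other settings, with 9093 to 9613 of all genes. Without single libraries 5 to 7 members passed, with 8426 to 9885 genes. Without single libraries, DEGs among the members numbered 0 to 1 in WT, 0 to 1 in FosBcKO and 1 to 2 in the mean. Over all genes they numbered 1889 to 2740, 935 to 2862 and 3669 to 4425. With CPM scaled by TMM factors, an alternative added after seeing the data, members without overlap numbered 0 in either knockout against WT at 6 h and 1 in the mean. Of all genes 14.1% in Egr1KO, 22.1% in FosBcKO and 10.7% in the mean did not overlap. The causes were not tested. In comparisons of a knockout with WT and in interactions, no alternative run changed the number of members that were DEGs or passed the FDR. There same-numbered libraries share only a number. Of 1740 alternative values for single members, 1601 kept direction and side of the threshold, 82 kept the side with no call but had the other sign, 20 lost a call and 37 gained one.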
